A study of Mus musculus with 80 samples.

Results

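The core circadian clock genes are the genes whose products form the feedback loop that keeps a rhythm of about a day in most mammalian cells. Here 10 of them were set as members: Arntl (also called Bmal1), Clock, Npas2, Cry1, Cry2, Per1, Per2, Per3, Nr1d1 and Nr1d2. A gene was taken from the annotated probe sets that carried its symbol alone, and the brightest of these by mean over all 80 arrays was used. This gave 9 members out of 17097 genes with 1 symbol, and all 9 were among the 11406 genes tested. Nr1d1 was not analysed here.

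RNA from whole lungs of male adult mice had been hybridised to Affymetrix arrays. The groups were CD-1, an outbred stock, KO, in which the styrene-metabolising enzyme CYP2F2 is knocked out, TG, which is humanized for CYP2F1, and WT. KO, TG and WT are all labelled C57Bl/6, and the 4 groups of mice are called strains here. Each strain had breathed 0 (air), 10, 40 or 120 ppm of styrene, a solvent used in plastics, once for 6 h, with 5 arrays in each of the 16 groups. Every mouse came from the same supplier and lived in a light phase from 7 AM to 7 PM, and lungs were taken in the morning after the exposure. The labels give no hour of collection for single animals, so an effect of that hour on these genes was not tested. The labels do not say which promoter drives CYP2F1 in TG.

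Signals are log2 values, so a difference of 1 is a doubling of the signal. Cyp2f2 lay between 11.5 and 11.9 on the 20 KO arrays and between 11.5 and 12.0 on the 20 TG arrays, against 12.0 to 13.3 on the 20 WT arrays. Whether its 1 listed probe set lies within the deleted part is not known here, so this level does not check the KO label. Scgb1a1, the defining marker of club cells, averaged 13.7 in WT lungs at 120 ppm and 13.8 in WT lungs in air. Both lie near 13.89, the highest signal of the whole table, so they are not read as a measure of club cells here. Medians of the arrays differed by strain and ran from 4.24 to 4.30 in CD-1, 4.10 to 4.20 in KO, 3.84 to 4.14 in TG and 4.53 to 4.60 in WT. Arrays of a group correlated at 0.978 to 0.997, and no pair of arrays was identical.

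As background, ARNTL pairs with CLOCK or its relative NPAS2 and binds E-box sequences to switch on the Per and Cry genes and the Nr1d genes. PER and CRY proteins then inhibit that pair, while the REV-ERB proteins made from Nr1d1 and Nr1d2 repress Arntl, Npas2 and Clock through elements they share with the ROR activators. Activator and repressor transcripts therefore peak at opposite times of day, and in lung the loop runs in club cells among other cell types.

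Promoter sequence was found for 9 of the 10 members in the RefSeq table (GRCm38.p6), as windows of 300 bases from 250 before to 50 after an annotated start. Per2 had no entry. Motifs were searched on both strands: the E-box CACGTG, its variant CACGTT, the core of the REV-ERB and ROR element as TAGGTCA or TGGGTCA, and the D-box as TTANNTAA. CACGTG was in a window of 8.09% of the 27025 genes of the table, CACGTT of 5.44%, the REV-ERB and ROR core of 7.35% and the D-box of 6.93%. Among the members CACGTG was found in 2 (Cry1 and Per1), CACGTT in 3 (Cry1, Cry2 and Nr1d1), the REV-ERB and ROR core in 1 (Arntl) and the D-box in 1 (Per3). The windows of Clock, Npas2 and Nr1d2 did not hold these letters. The stretches below are shown because each holds an element of a kind known to carry clock input, with the matched letters in capitals, 5′ to 3′ on the strand of the gene.
Arntl, plus strand, chr7:113207530-113207559, just after the second annotated start: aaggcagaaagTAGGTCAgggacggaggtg
Cry1, minus strand, chr10:85185055-85185304, the 250 bases before the start: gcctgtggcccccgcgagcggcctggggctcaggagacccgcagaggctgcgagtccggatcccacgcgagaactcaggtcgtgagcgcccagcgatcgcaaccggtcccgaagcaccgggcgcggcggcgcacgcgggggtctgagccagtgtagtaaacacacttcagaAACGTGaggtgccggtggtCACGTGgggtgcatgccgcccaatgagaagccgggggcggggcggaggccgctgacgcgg
Per3, minus strand, chr4:151044666-151044915, the 250 bases before the start: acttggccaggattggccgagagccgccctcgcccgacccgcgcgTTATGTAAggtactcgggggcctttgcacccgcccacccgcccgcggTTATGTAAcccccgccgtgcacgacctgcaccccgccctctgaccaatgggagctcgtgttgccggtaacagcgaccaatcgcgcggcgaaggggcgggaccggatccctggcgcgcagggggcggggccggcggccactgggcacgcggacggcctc
The Cry1 stretch holds the E-box and its variant close to each other, the variant being CACGTT on the opposite strand, and the Per3 stretch holds 2 copies of the same D-box. The D-box is bound by DBP, TEF and HLF and, as a repressor, by NFIL3. A match describes these letters only, since binding was not measured.

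In WT lungs the members moved in opposite directions after styrene: the activator Arntl and the late repressor Cry1 rose at 40 and 120 ppm, while Per3, Nr1d2 and Cry2 fell at all 3 doses. A gene is called when limma's adjusted p, by Benjamini-Hochberg over the 11406 genes of a comparison, was under 0.05. At 120 ppm 5 of 9 members were called, 2 higher and 3 lower, where 23.9% of all genes were called (14.3% higher and 9.65% lower). At 40 ppm 5 of 9 were called, again 2 higher and 3 lower, against 26% of all genes (13.7% higher and 12.4% lower). At 10 ppm 3 of 9 were called, all lower, against 12.6% of all genes (7.67% higher and 4.9% lower). The median absolute change of the members at 120 ppm was 0.43, against 0.13 for all genes. The members were chosen with their changes in WT and CD-1 known, so counts of members in these strains describe those changes only.

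Arntl, the partner without which CLOCK cannot bind E-boxes, had log2 signals of 6.74, 6.96, 6.76, 6.86 and 6.84 in WT lungs at 120 ppm, against 6.15, 6.41, 6.43, 6.03 and 6.61 in WT lungs in air. All 5 exposed lungs lay above all 5 air lungs. The change was 0.51 ± 0.15 (SE), a 1.42-fold higher signal, with adjusted p = 0.0173 in limma. At 40 ppm the change was 0.48 ± 0.15 (adjusted p = 0.0221, limma), and at 10 ppm it was 0.40 ± 0.15 (adjusted p = 0.0832, limma). The Arntl call at 120 ppm was lost without WT 0 ppm replicate 4 (adjusted p = 0.0508). With all arrays kept, it was lost when both its probe sets were averaged (0.36, adjusted p = 0.0633). Separately, it was lost when all 80 arrays shared 1 estimate of the spread (adjusted p = 0.157). That at 40 ppm was lost in the same ways (adjusted p = 0.0627, 0.0707 and 0.176), and without WT 40 ppm replicate 1 or WT 0 ppm replicate 1.

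Npas2, which can stand in for CLOCK, had signals of 5.40, 5.59, 5.29, 5.71 and 5.46 in WT lungs at 120 ppm, against 4.79, 5.74, 4.90, 4.46 and 5.41 in WT lungs in air. The groups overlapped: air replicate 2 lay above every exposed lung, and air replicate 5 above exposed replicates 1 and 3. The difference of 0.43 ± 0.20 was not called (adjusted p = 0.133, limma), and was called without WT 0 ppm replicate 2 (0.60, adjusted p = 0.0301). Clock differed by 0.05 ± 0.06 (adjusted p = 0.625), and its 4 probe sets did not share a sign in WT.

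The cryptochromes, which block the ARNTL pair, moved apart. Cry1 had signals of 6.87, 6.77, 6.85, 6.90 and 6.88 in WT lungs at 120 ppm, against 6.47, 6.72, 6.51, 6.02 and 6.26 in WT lungs in air, with no overlap. Its change was 0.46 ± 0.10 (adjusted p = 0.00231, limma), and 0.53 ± 0.10 at 40 ppm (adjusted p = 0.000621). Cry2 averaged 7.27 ± 0.22 in WT lungs at 120 ppm and 7.68 ± 0.15 in WT lungs in air (SD, n = 5 each), a change of -0.41 ± 0.12 (adjusted p = 0.0174, limma). It was called at 10 ppm (-0.48 ± 0.12, adjusted p = 0.0128) and 40 ppm (-0.36 ± 0.12, adjusted p = 0.0317) as well. At 120 ppm the Cry2 call was lost without WT 120 ppm replicate 1 (-0.33, adjusted p = 0.0562). At 40 ppm it was lost without WT 40 ppm replicate 1, 3, 4 or 5 or WT 0 ppm replicate 3, 4 or 5, with adjusted p between 0.0505 and 0.0783.

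Among the period genes, which encode the partners of the cryptochromes, Per3 was the one that passed the test. Its signals were 6.86, 6.80, 7.27, 6.93 and 6.86 in WT lungs at 120 ppm, against 8.18, 7.82, 7.91, 7.81 and 7.28 in WT lungs in air. Every exposed lung was below every air lung. The change was -0.86 ± 0.21 (0.552-fold, adjusted p = 0.00589, limma), -0.96 ± 0.21 at 40 ppm (adjusted p = 0.00244) and -0.70 ± 0.21 at 10 ppm (adjusted p = 0.0319). All 5 Per3 probe sets had a lower mean at 40 and 120 ppm than in air.

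Per2 differed by -0.43 ± 0.17 at 120 ppm and was not called (adjusted p = 0.0687, limma). It was called without WT 0 ppm replicate 5 (-0.53, adjusted p = 0.0284). Per1, a period gene that stress hormones also induce, differed by -0.11 ± 0.15 (adjusted p = 0.638).

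Nr1d2, which encodes REV-ERB beta, had signals of 9.61, 9.92, 9.82, 9.91 and 9.71 in WT lungs at 120 ppm, against 10.5, 10.2, 10.3, 10.4 and 10.2 in WT lungs in air. The groups did not overlap. Its change was -0.55 ± 0.14 (0.682-fold, adjusted p = 0.00771, limma), -0.60 ± 0.14 at 40 ppm (adjusted p = 0.00405) and -0.44 ± 0.14 at 10 ppm (adjusted p = 0.0427).

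At 10 ppm the calls of Nr1d2 and Per3 were close to the threshold and sensitive to which arrays were kept. Both were lost without WT 10 ppm replicate 1, 2 or 5 or WT 0 ppm replicate 1, 2, 3 or 4, and Nr1d2 also without WT 0 ppm replicate 5, with no filter on low signal (adjusted p = 0.0584) and with 1 fit for all 80 arrays (adjusted p = 0.125). The highest adjusted p came without WT 10 ppm replicate 5 (Nr1d2 -0.35, adjusted p = 0.133, and Per3 -0.59, adjusted p = 0.104). Without WT 10 ppm replicate 4 Arntl was called (0.55, adjusted p = 0.00628). Replicate 4 at 10 ppm stood with the air lungs, at 6.12 for Arntl, 10.4 for Nr1d2 and 7.74 for Per3. The exposed WT doses did not separate from each other: 0 of 9 members were called between 40 and 10 ppm, 120 and 10 ppm, or 120 and 40 ppm, where 0.947%, 0.903% and 0% of all genes were called. At an unadjusted p under 0.05 the members counted 1, 1 and 0 in those comparisons, beside 15.3%, 13.4% and 7.36% of all genes, so they did not stand out.

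**Figure D1:**
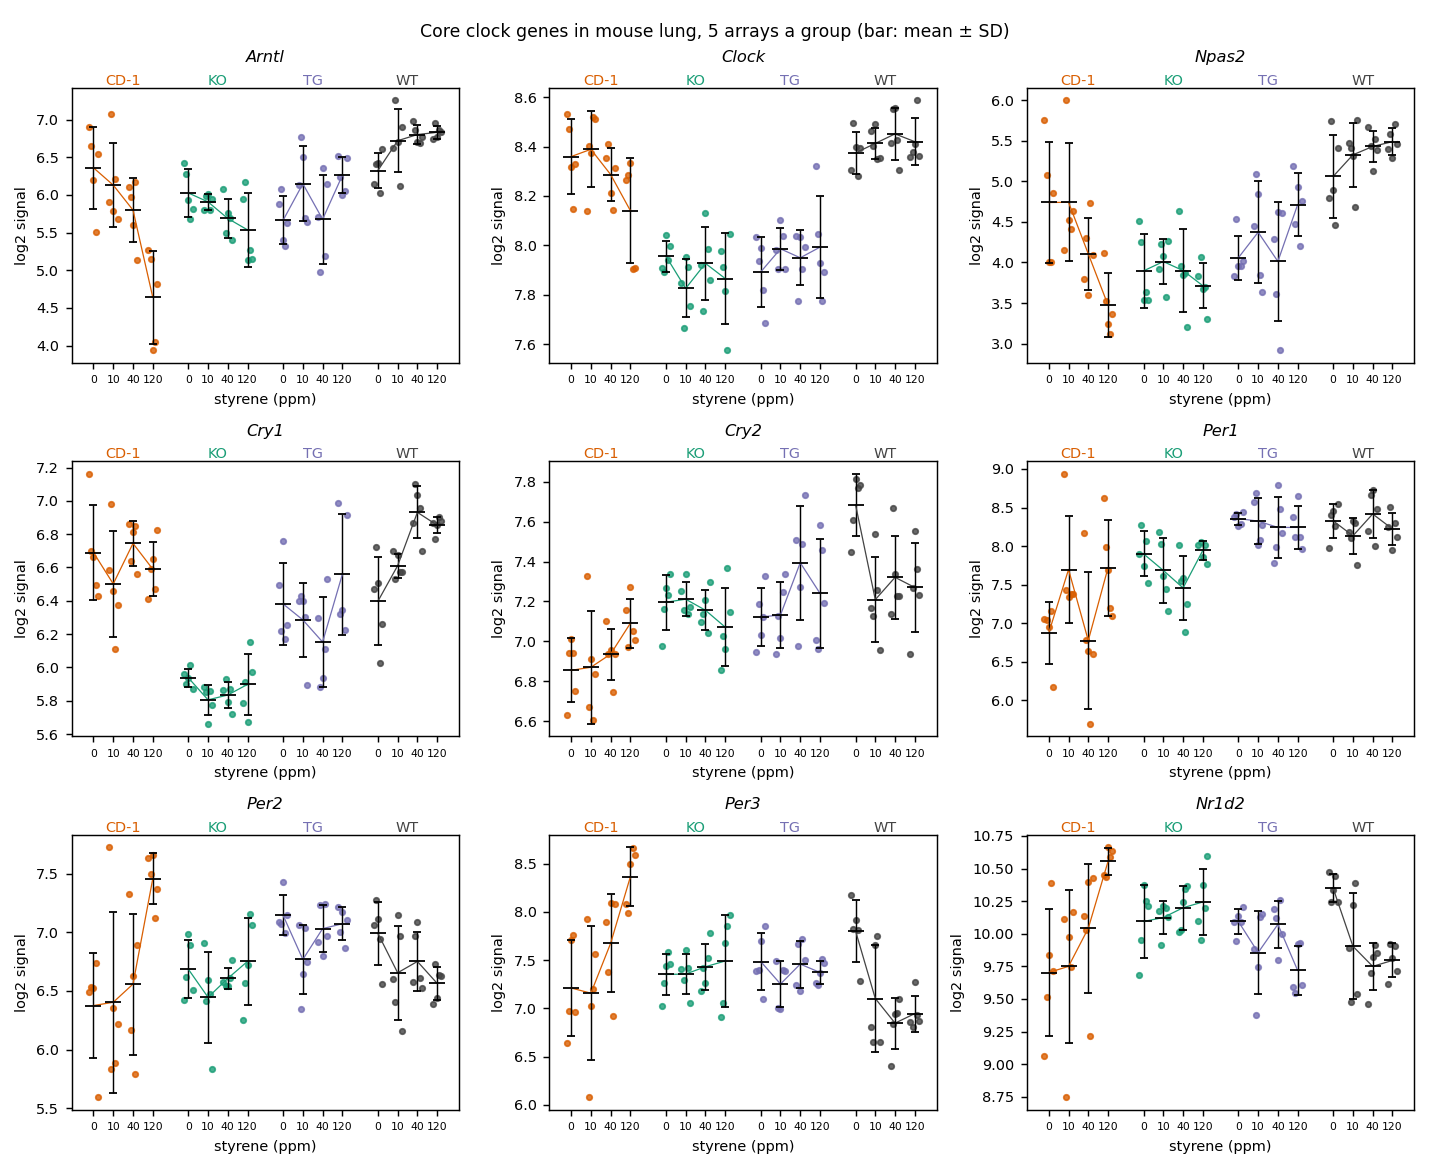
Log2 signal of the 9 members (vertical axis of each panel) on every array, by strain and styrene dose in ppm (horizontal axis). Points are arrays, bars are means ± SD of 5 arrays and lines join the means of a strain; Arntl at CD-1 120 ppm lies between 3.94 and 5.26, and Per3 at WT 40 and 120 ppm lies below its WT air values.

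Other measures also moved in WT. Of 12 club cell markers, 9 were lower at 120 ppm and 12 at 40 ppm, where 9.65% and 12.4% of all genes were called lower. The mean log2 signal of the list ran from 10.9 to 11.1 in WT lungs at 120 ppm, against 11.6 to 11.7 in WT lungs in air, and Pon1 fell by 1.69, Cckar by 0.98 and Aldh1a7 by 0.60. Of 6 smooth muscle markers, 4 rose at 120 ppm, where 14.3% of all genes were called higher, with Actg2 at 1.34, Acta2 at 0.99 and Des at 0.55, and the list's mean ran from 7.77 to 8.25 in WT lungs at 120 ppm, against 7.12 to 7.75 in WT lungs in air. Of 10 ciliated cell markers and of 9 macrophage markers, 3 each were lower at 120 ppm, beside the same 9.65% of all genes. The macrophage markers did not share a direction: most of those not called had a higher mean at 120 ppm than in air. The part of all these markers in the clock gene changes was not tested. In whole lung, fewer cells of a type and less RNA per cell cannot be told apart. Of 11 glucocorticoid response genes 4 rose at 40 ppm, against 13.7% of all genes, and 1, Sgk1, at 120 ppm (0.29, adjusted p = 0.0286, limma), which is no more than the 14.3% of all genes called higher there. The part of these genes was not tested either.

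In CD-1 lungs the means at 120 ppm lay on the other side of air for every member. Arntl, Npas2, Clock and Cry1 had lower means than in air, and Cry2, Per1, Per2, Per3 and Nr1d2 had higher means. None of the 9 was called, where 0.0175% of all genes, 2 genes, were called (0.00877% higher and 0.00877% lower). At an unadjusted p under 0.05 there were 7 of 9 members, against 5.23% of all genes. The median absolute change of the members was 0.85, against 0.07 for all genes. As in WT, the members were chosen with this pattern known. Several of them also varied together between lungs, so the count is a description only.

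Arntl had signals of 5.26, 5.15, 3.94, 4.05 and 4.82 in CD-1 lungs at 120 ppm, against 6.90, 6.66, 6.20, 5.50 and 6.54 in CD-1 lungs in air. All 5 exposed lungs were below all air lungs. The difference was -1.72 ± 0.32 (SE), a 0.304-fold signal, the 6th largest of all genes in size, with adjusted p = 0.066 in limma. It was called without CD-1 0 ppm replicate 4 (-1.93, adjusted p = 0.0281).

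Npas2 had signals of 4.12, 3.53, 3.24, 3.12 and 3.37 in CD-1 lungs at 120 ppm, against 5.75, 5.07, 4.00, 4.01 and 4.86 in CD-1 lungs in air. All 5 exposed values lay below 4.28, the median of the whole table, which was also the minimum signal used in the filter. The difference was -1.26 ± 0.35 (adjusted p = 0.403, limma). Clock differed by -0.22 ± 0.10 (adjusted p = 0.935) and Cry1 by -0.10 ± 0.14 (adjusted p = 1).

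Per3 had signals of 8.08, 7.99, 8.50, 8.66 and 8.58 in CD-1 lungs at 120 ppm, against 6.64, 6.97, 7.71, 7.76 and 6.96 in CD-1 lungs in air. Per2 had 7.63, 7.50, 7.66, 7.13 and 7.37 in CD-1 lungs at 120 ppm, against 6.49, 6.53, 6.53, 6.74 and 5.59 in CD-1 lungs in air. Neither gene's groups overlapped. The differences were 1.15 ± 0.30 (2.22-fold, adjusted p = 0.369, limma) for Per3 and 1.08 ± 0.32 (2.11-fold, adjusted p = 0.466) for Per2.

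Nr1d2 had signals of 10.4, 10.4, 10.7, 10.6 and 10.6 in CD-1 lungs at 120 ppm, against 9.06, 9.52, 9.84, 10.4 and 9.71 in CD-1 lungs in air. The exposed lungs were all higher, by 0.85 ± 0.27 on average (adjusted p = 0.525, limma). Per1 differed by 0.84 ± 0.39 (adjusted p = 0.935) with overlap, and Cry2 by 0.24 ± 0.11 (adjusted p = 0.968).

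Arntl, Per3 and Nr1d2 differed by more in CD-1 than they changed in WT, while Cry1 and Cry2 differed by less. The spread between lungs was also larger in CD-1 for 8 of the 9 members, Cry2 being the exception (pooled SD within a group of 0.185 in CD-1 and 0.202 in WT). That SD was 0.54 in CD-1 and 0.25 in WT for Arntl, 0.52 in CD-1 and 0.36 in WT for Per3, 0.67 in CD-1 and 0.25 in WT for Per1, and 0.46 in CD-1 and 0.24 in WT for Nr1d2. When all 80 arrays shared 1 estimate of the spread, 5 members were called at 120 ppm in CD-1: Arntl, Npas2, Per2, Per3 and Nr1d2. That fit called 115 genes in place of 2.

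The lower doses in CD-1 called no member, where 0.00877% of all genes were called at 40 ppm (0% higher and 0.00877% lower) and 0% at 10 ppm. At an unadjusted p under 0.05 there were 0 members at 40 ppm (3.88% of all genes) and 1 at 10 ppm (2.38% of all genes). Arntl averaged 6.36 in air, 6.13 at 10 ppm, 5.80 at 40 ppm and 4.64 at 120 ppm, and Per3 averaged 7.21, 7.16, 7.67 and 8.36 in the same order. The means at 40 ppm lay between those of air and 120 ppm for both genes. Those of Per1 and Cry1 did not. Per1 averaged 6.88 in air, 7.70 at 10 ppm, 6.78 at 40 ppm and 7.72 at 120 ppm. Cry1 averaged 6.69 in air, 6.74 at 40 ppm and 6.59 at 120 ppm. No member was called between exposed CD-1 doses, as for 0% of all genes between 40 and 10 ppm, 120 and 10 ppm, and 120 and 40 ppm. The members under an unadjusted p of 0.05 numbered 1 between 40 and 10 ppm (4.04% of all genes) and 4 between 120 and 40 ppm (4.87% of all genes). Between 120 and 10 ppm 6 of 9 members were under an unadjusted p of 0.05, against 5.86% of all genes, with Arntl at -1.49 ± 0.32 (adjusted p = 0.236, limma).

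Single CD-1 lungs stood apart at 10 ppm. Replicate 2 had the highest Arntl and Npas2 of its group, 7.07 and 6.00, and the lowest Per3 and Nr1d2, 6.08 and 8.75. Replicate 1 had the highest Per1 and Per2, 8.94 and 7.73.

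The difference between the strains' responses was tested itself, as the change in CD-1 minus the change in WT. At 120 ppm 6 of 9 members were called, against 4.37% of all genes. All 9 members had opposite signs in CD-1 and WT, where 46.3% of all genes did. At 40 ppm 8 of 9 had opposite signs (41.3% of all genes) and at 10 ppm 6 of 9 (50.2% of all genes). The members were chosen with this pattern known, so the counts of signs, the calls and their adjusted p describe it only.

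Arntl changed by -1.72 in CD-1 and by 0.51 in WT at 120 ppm, a difference in response of -2.22 ± 0.36 (adjusted p = 0.000404, limma). Npas2 changed by -1.26 in CD-1 and 0.43 in WT, a difference of -1.69 ± 0.42 (adjusted p = 0.0162). Both Arntl and Npas2 thus had a response to 120 ppm in CD-1 below that in WT.

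Per3 changed by 1.15 in CD-1 and -0.86 in WT, a difference of 2.01 ± 0.38 (adjusted p = 0.00212, limma). The differences were 1.51 ± 0.37 for Per2 (adjusted p = 0.0164), 1.40 ± 0.31 for Nr1d2 (adjusted p = 0.00778) and 0.65 ± 0.17 for Cry2 (adjusted p = 0.0219). Those of Cry1 (-0.56 ± 0.18, adjusted p = 0.0632), Per1 (0.95 ± 0.43, adjusted p = 0.222) and Clock (-0.26 ± 0.12, adjusted p = 0.204) were not called.

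The calls of Arntl, Npas2, Per2, Per3 and Nr1d2 were kept under all 26 alternatives. These include leaving out each air or 120 ppm array of CD-1 and WT, but not arrays of the other doses. That of Cry2 was lost without WT 120 ppm replicate 1 (0.57, adjusted p = 0.0539), and Cry1 was called without WT 0 ppm replicate 2 (-0.64, adjusted p = 0.037), CD-1 0 ppm replicate 4 (-0.61, adjusted p = 0.0437), CD-1 0 ppm replicate 5 (-0.62, adjusted p = 0.0452) or CD-1 120 ppm replicate 5 (-0.61, adjusted p = 0.0458). At 40 ppm 1 member was called, Per3 (1.42 ± 0.38, adjusted p = 0.0472), against 1.61% of all genes (184 genes, but 707 without CD-1 40 ppm replicate 4 and 88 without WT 40 ppm replicate 3), and 18 of 26 alternatives lost that call. At 10 ppm none was called, against 1.89% of all genes, and 3 of 9 members had an unadjusted p under 0.05, against 13.3% of all genes.

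**Figure D2:**
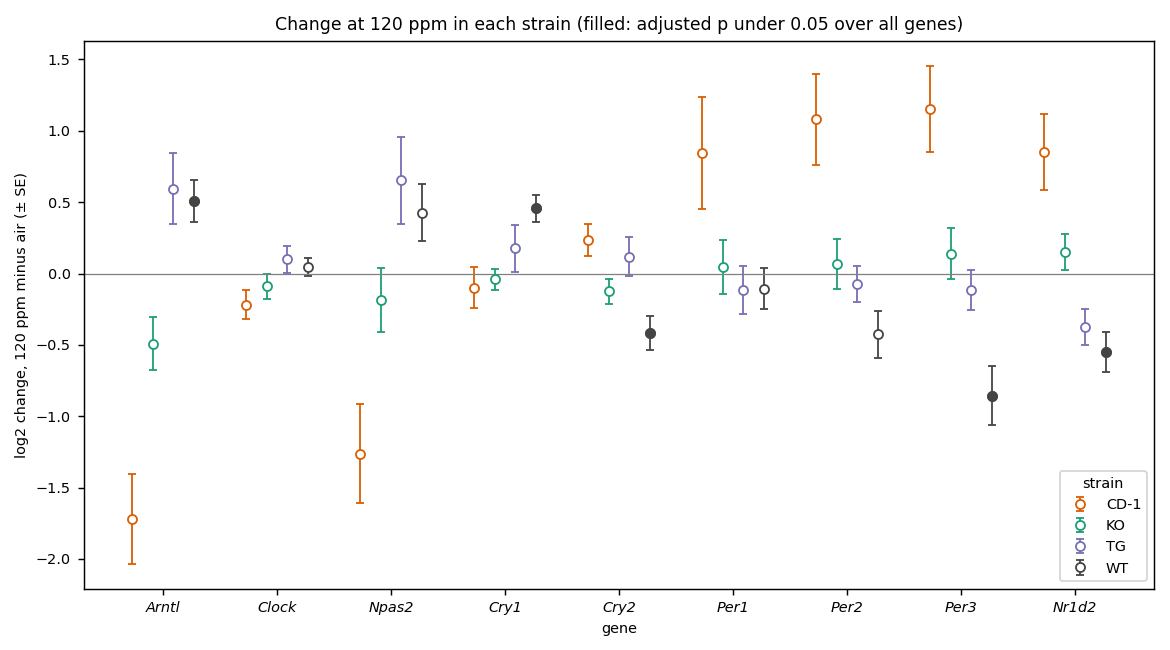
Log2 change from air to 120 ppm (vertical axis, ± SE) of the 9 members (horizontal axis) in CD-1, KO, TG and WT, with filled points where limma's adjusted p over all genes was under 0.05. Arntl stands at -1.72 in CD-1 and 0.51 in WT, and Per3 at 1.15 in CD-1 and -0.86 in WT.

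In KO lungs no member was called at 10, 40 or 120 ppm, where 0%, 0% and 0% of all genes were called. At an unadjusted p under 0.05 there were 0 members at 10 ppm (5.69% of all genes) and 1 at 40 ppm (4.94% of all genes). At 120 ppm 1 of 9 members, Arntl, had an unadjusted p under 0.05, against 5.23% of all genes. Its signals were 5.95, 6.17, 5.14, 5.27 and 5.16 in KO lungs at 120 ppm, against 6.43, 6.28, 5.93, 5.68 and 5.82 in KO lungs in air. The groups overlapped, and 3 of the 5 exposed lungs lay below every air lung. The difference was -0.49 ± 0.19 (adjusted p = 0.879, limma).

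The KO response to 120 ppm differed from that of WT in 4 of 9 members, against 11.4% of all genes. The differences were -0.998 ± 0.25 for Arntl (adjusted p = 0.00627, limma), -0.50 ± 0.12 for Cry1 (adjusted p = 0.00643), 0.996 ± 0.28 for Per3 (adjusted p = 0.0179) and 0.70 ± 0.20 for Nr1d2 (adjusted p = 0.0148). With 1 estimate of the spread over all 80 arrays Per3 alone was called. Each difference holds the WT change, which was known when the members were chosen, so these calls are a description only.

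In TG lungs no member was called at 10, 40 or 120 ppm, where 0%, 0% and 0.0701% of all genes were called. The members under an unadjusted p of 0.05 numbered 1 at 10 ppm and 0 at 40 ppm, beside 13.8% and 7.6% of all genes, which they did not exceed. At 120 ppm 3 of 9 members had an unadjusted p under 0.05, against 12.6% of all genes. Arntl had signals of 6.52, 6.24, 6.01, 6.05 and 6.49 in TG lungs at 120 ppm, against 5.88, 6.08, 5.41, 5.32 and 5.63 in TG lungs in air, with overlap through 1 air lung. Its difference was 0.60 ± 0.25 (adjusted p = 0.333, limma), and that of Npas2 was 0.65 ± 0.31 (adjusted p = 0.384). Nr1d2 was lower in all 5 exposed lungs, 9.54 to 9.93 at 120 ppm against 9.94 to 10.2 in air, by -0.38 ± 0.13 (adjusted p = 0.253).

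No member's response in TG was called as different from WT, against 9.75% of all genes, with 2 of 9 at an unadjusted p under 0.05, near the 24.1% of all genes there. The nearest were Per3 (0.74 ± 0.26, adjusted p = 0.0615, limma) and Cry2 (0.53 ± 0.19, adjusted p = 0.062), which had changed by -0.11 and 0.12 in TG, against -0.86 and -0.41 in WT. Per3 was called without WT 0 ppm replicate 5 (0.87, adjusted p = 0.0269), WT 120 ppm replicate 3 (0.82, adjusted p = 0.0464) or TG 0 ppm replicate 5 (0.83, adjusted p = 0.0363), and Cry2 under 7 alternatives (0.53 to 0.60), 5 of them without TG 120 ppm replicate 1 or 2, TG 0 ppm replicate 5, WT 120 ppm replicate 3 or WT 0 ppm replicate 1.

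In air the strains also differed, and so did the level of their whole arrays. CD-1 had lower signals than WT in 5 of 9 members, where 53.4% of all genes were called (544 higher and 5546 lower). The median difference over all genes was -0.23. The count of members is near the share of all genes, so it does not set them apart. Per1 had signals of 7.06, 7.04, 6.95, 7.16 and 6.17 in CD-1 lungs in air, against 7.98, 8.40, 8.46, 8.26 and 8.54 in WT lungs in air. It was 1.45 ± 0.16 lower in CD-1 (adjusted p = 7.06e-07, limma), or -1.22 after the median difference was subtracted. Cry2 was lower by 0.83 ± 0.09 (adjusted p = 9.83e-07), or -0.60 after subtraction. These were the calls kept under all 16 alternatives. Per2 (-0.62), Nr1d2 (-0.65) and Per3 (-0.59) were not called once each array was centred on its median, where Cry1 (0.60, adjusted p = 0.00223) and Clock (0.29, adjusted p = 0.00929) were called as higher in CD-1. The Per3 call was also lost without CD-1 0 ppm replicate 1 or 5 or WT 0 ppm replicate 1.

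KO differed from WT in air in 5 of 9 members, all lower, against 75% of all genes and a median of -0.36. TG differed in 4 of 9, all lower, against 80.4% and a median of -0.48. Neither count of members exceeded the share of all genes. After centring 0 members were called in KO. In TG Arntl, Npas2 and Cry2 lost their calls, the difference in Clock changed sign, and Per1 (0.54), Per2 (0.67) and Cry1 (0.50) were called as higher than in WT. Strain and array level cannot be told apart here.

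A difference between 2 members on the same array does not move with the level of that array. Its size depends on the 2 probe sets, so only its differences between arrays are read here. Arntl minus Nr1d2 averaged -2.96 ± 0.09 in WT lungs at 120 ppm and -4.02 ± 0.33 in WT lungs in air (SD, n = 5 each). The WT lungs at 120 ppm lay between -3.05 and -2.87, and those in air between -4.42 and -3.63. In CD-1 the same difference averaged -5.91 ± 0.70 at 120 ppm and -3.34 ± 1.02 in air (SD, n = 5 each). At 120 ppm all 5 CD-1 lungs, from -6.73 to -5.19, lay below every WT lung of any dose.

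In KO it averaged -4.71 ± 0.71 at 120 ppm and -4.07 ± 0.57 in air, and in TG -3.46 ± 0.41 at 120 ppm and -4.43 ± 0.39 in air (SD, n = 5 each). Within KO and within CD-1 the mean was lower at each higher dose, and within WT the exposed doses had like means of -3.18, -2.95 and -2.96 at 10, 40 and 120 ppm. These are descriptions with no test.

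**Figure D3:**
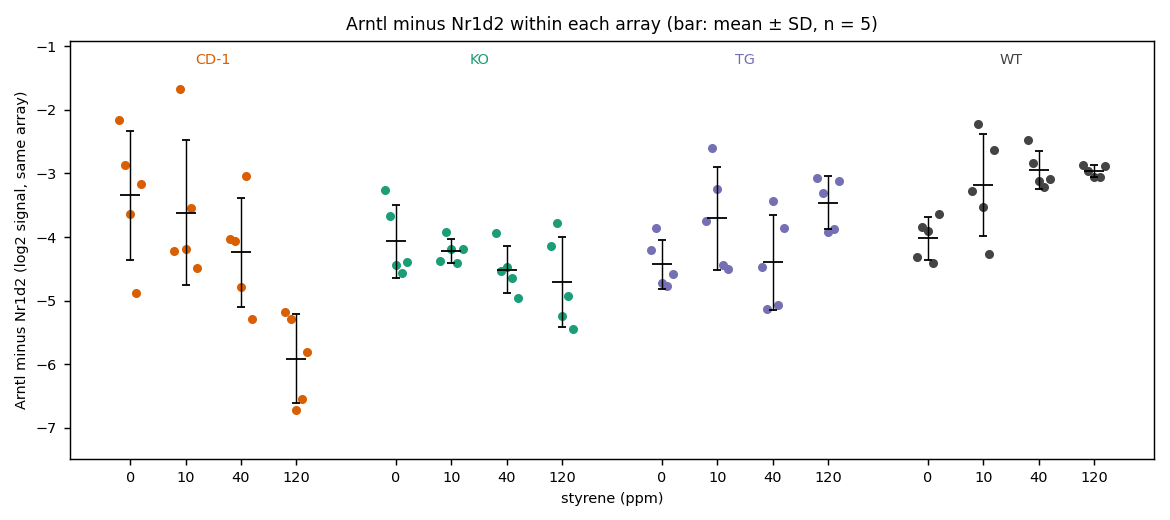
Arntl minus Nr1d2 in log2 signal on the same array (vertical axis) by strain and styrene dose in ppm (horizontal axis). Points are arrays and bars are means ± SD (n = 5); CD-1 120 ppm averages -5.91 and WT 120 ppm -2.96.

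The members also varied together between lungs that had the same strain and dose. For this, each array's deviation from its group mean was taken over all 80 arrays, and Arntl was set against the other 8 members with within-group permutation (100000 resamples, two-sided). The comparison was chosen after the data had been seen. Npas2 had r = 0.772 and rho = 0.773, and Nr1d2 had r = -0.765 and rho = -0.766. Per3 had r = -0.707 and rho = -0.701. Each of these 3 had a permutation p of 1e-05 for both measures, the smallest the resampling can give, and an adjusted p of 2.7e-05 over the 8 relations.

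Per2 had r = -0.381 (permutation p = 0.0073, adjusted 0.015) and rho = -0.412 (permutation p = 0.0012, adjusted 0.0024). Clock had r = 0.299 (permutation p = 0.026, adjusted 0.035) and rho = 0.31 (permutation p = 0.016, adjusted 0.021), and Cry1 had r = 0.33 (permutation p = 0.015, adjusted 0.023) and rho = 0.261 (permutation p = 0.044, adjusted 0.05). The adjusted p of Cry1 for rho stood at the threshold, so Cry1 is counted as passing by r only. Cry2 passed by rho only (rho = -0.33, permutation p = 0.0084, adjusted 0.013, with r = -0.244, permutation p = 0.063, adjusted 0.072). Per1 passed by neither measure (r = 0.157, permutation p = 0.28, adjusted 0.28, and rho = 0.198, permutation p = 0.11, adjusted 0.11).

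The strongest 3 relations were present in every strain. Within CD-1, KO, TG and WT, r with Nr1d2 was -0.79, -0.753, -0.804 and -0.775, r with Per3 was -0.777, -0.849, -0.531 and -0.724, and r with Npas2 was 0.752, 0.764, 0.842 and 0.694. Without the 2 arrays farthest from the median of Arntl, r was -0.715 for Nr1d2, -0.658 for Per3 and 0.737 for Npas2. Cry1 had r between -0.102 in KO and 0.471 in CD-1, so its relation was not shared by all strains.

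For some members the deviations also went with the replicate number, as a description made after the data had been seen. Over the 16 groups, Arntl lay above its group mean in 13 of the lungs numbered 2 and below it in 12 of those numbered 4, and Nr1d2 lay below its mean in 14 of the lungs numbered 2. Per1 in CD-1 and in KO was above the mean in all 4 lungs numbered 1 and below it in all 4 numbered 5. The labels do not say what the number stands for, and the permutation within groups does not take it into account. With the mean of each number within each strain removed, r with Arntl was -0.721 for Nr1d2, -0.681 for Per3, 0.666 for Npas2 and -0.669 for Per2, and that of Per1 changed sign (-0.286).

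Across the 11405 other genes tested, r with Arntl had a 5th percentile of -0.209, a median of 0.0336 and a 95th percentile of 0.263. Npas2 had the highest r of all, and 1 gene had a lower r than Nr1d2. That gene was Dbp (-0.819), and the next after Nr1d2 and Per3 were Tef (-0.701) and Hlf (-0.649), all named after their values were seen. At the positive end Npas2 was followed by Rasl11a (0.737), Nfil3 (0.654), Spon2 (0.624) and Adm (0.609), of which Nfil3 alone is in the list of other clock genes. DBP, TEF and HLF are factors that bind D-boxes, and their binding to the D-box letters of the Per3 stretch above was not measured.

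**Figure D4:**
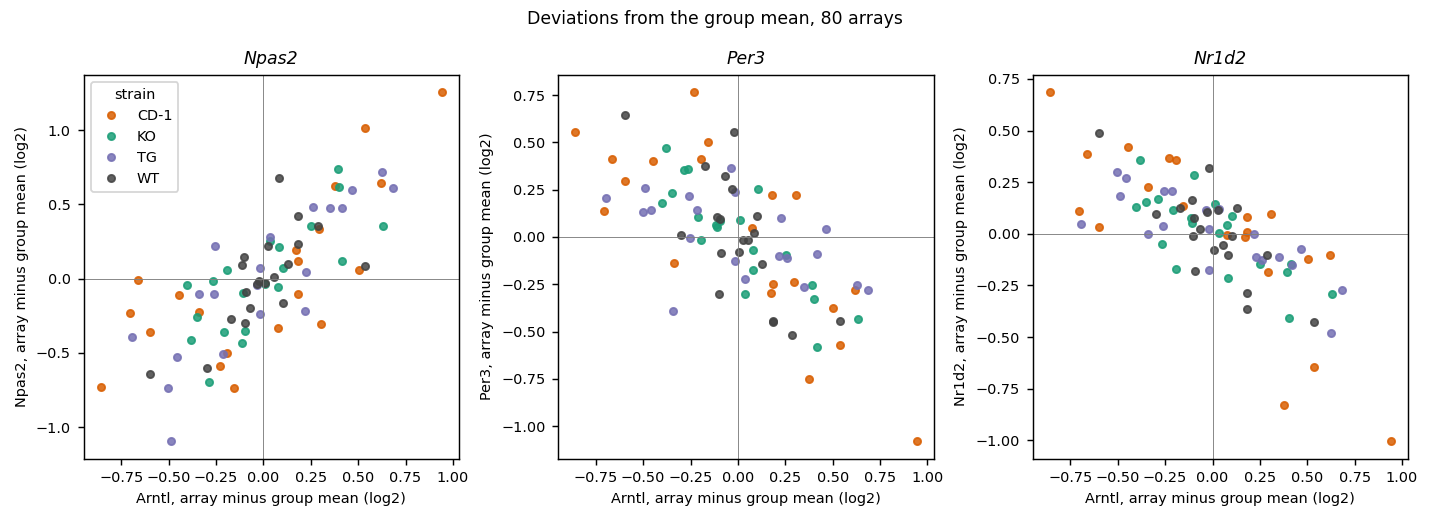
Deviation of each of 80 arrays from its group mean (log2) for Npas2, Per3 and Nr1d2 (vertical axes) against that of Arntl (horizontal axes), coloured by strain. Npas2 is high where Arntl is high (r = 0.772), and Per3 (r = -0.707) and Nr1d2 (r = -0.765) are low there.

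Likeness between genes was also measured over the 16 group means, each strain centred on its own mean, as a root mean square difference in log2. Arntl had the largest spread of its own centred means among the members (0.383), followed by Npas2 (0.313) and Per3 (0.31), ranks 89, 156 and 162 of 11406, while Clock had the smallest (0.0595). The gene nearest to Arntl was Npas2 (0.132), then Prkag3 (0.227), Adat2 (0.227), Spon2 (0.229) and Ccnjl (0.235). Nearest to Npas2 were Arntl (0.132), Prkag3 (0.183), Adat2 (0.185), Ccnjl (0.206) and Spaar (0.207). Nearest to Per3 were Hlf (0.0971), Nr1d2 (0.117), Tef (0.141), Per2 (0.156) and Ciart (0.162). All 5 genes nearest to Per3 are members or other clock genes.

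Of 24 other clock genes listed, 17 were tested. At 120 ppm in WT 3 rose and 6 fell, against 23.9% of all genes called, and in CD-1 none was called. The median change of the list in WT was -0.12, against 0.01 for all genes. Among the D-box factors, Dbp fell by 1.29 (adjusted p = 0.0111, limma), Hlf by 0.86 (adjusted p = 0.00456) and Tef by 0.45 (adjusted p = 0.00566) in WT, and the opposing factor Nfil3 rose by 0.65 (adjusted p = 0.00271). Usp2, Wee1 and Ciart fell by 0.58, 0.48 and 0.28, and Bhlhe40 and Timeless rose by 0.34 and 0.30.

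In CD-1 lungs at 120 ppm Dbp had a mean of 8.60, against 6.46 in CD-1 lungs in air, a difference of 2.14 ± 0.61 (adjusted p = 0.407, limma). Its response differed from that of WT by 3.42 ± 0.73 (adjusted p = 0.00517). In all 7 of 17 listed genes had a different response in CD-1, against 4.37% of all genes, 6 of them above WT (Dbp, Hlf, Tef, Wee1, Ciart and Usp2) and 1 below it (Nfil3). Bhlhe40 had a higher mean in both strains, 0.47 ± 0.13 in CD-1 (adjusted p = 0.403) and 0.34 ± 0.12 in WT (adjusted p = 0.0386).

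**Figure D5:**
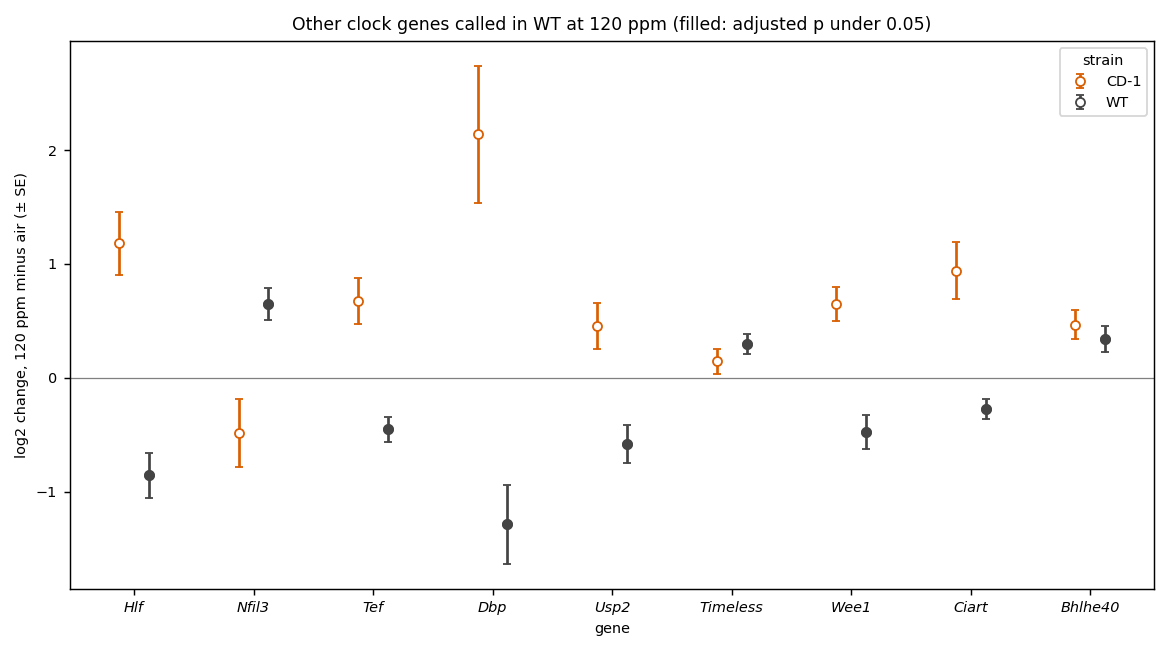
Log2 change from air to 120 ppm (vertical axis, ± SE) of the 9 other clock genes called in WT (horizontal axis), in CD-1 and WT, with filled points where limma's adjusted p was under 0.05. Dbp stands at 2.14 in CD-1 and -1.29 in WT.

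None of these cell type markers was called at 120 ppm in CD-1, KO or TG, and 1 club cell marker was lower in CD-1 at 40 ppm. With 0.0175% of all genes called in CD-1 at 120 ppm, 0 of 12 club cell markers and 0 of 6 smooth muscle markers there say little, and the list medians were -0.03 and 0.10. Pon1, which fell by 1.69 in WT, differed by -0.97 ± 0.19 in CD-1 (adjusted p = 0.0931, limma). The mean log2 signal of the club cell list ran from 11.1 to 11.6 in CD-1 lungs at 120 ppm, against 11.4 to 11.6 in CD-1 lungs in air. Of the 11 glucocorticoid response genes none was called in CD-1 at 120 ppm, and the median change of the list was 0.0031 in CD-1 and 0.11 in WT.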

How the data were processed

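The authors deposited log2 signal for 45037 probe sets on 80 arrays, for which the submitters' processing notes name RMA and Partek. Their versions, and whether strains were processed together, were not stated there. Probe sets with 1 symbol numbered 28898, those with several 551 and unlisted ones 15588; symbols were updated through RefSeq (GRCm38.p6). A gene took its brightest probe set (by mean) and was tested if this exceeded 4.276, the table's median, on at least 5 arrays, which kept 11406 genes.

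Fits used limma 3.58.1 in R 4.3.3: each strain alone (20 arrays), differences in response on 40 arrays and air levels on 20 arrays, with Benjamini-Hochberg adjustment at 0.05. The scripts were tested on simulated data. Groups hold 5 arrays labelled as biological replicates, and their number limits the precision. Replicate numbers were not used to pair samples in the main fits. Over all genes, same-number deviations across doses had median correlations of -0.0165 to 0.0469 by strain. Single pairs of samples ran from -0.521 to 0.453, and a median over all genes cannot show a link in single genes. Some members did follow the number.

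The members, gene lists and tests were chosen with earlier results of these data known. All members are named; other clock genes are named if called in WT or CD-1 at 120 ppm, up to 3 genes of another list by lowest p in WT at 120 ppm, and 5 nearest genes for the 3 members that vary most. Alternatives were no filter, the mean of all probe sets, centring each array, 1 fit for all 80 arrays, a trended and robust prior and a replicate block. Each array of the groups compared was also left out in turn. Nr1d1 was not analysed here. Figures used Python 3.11.15 and matplotlib 3.10.9.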

Additional observations from a re-analysis of the deposited data

Results flagged for a closer look

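Single lungs stood far from the other 4 of their group in 10 of 144 member and group pairs, by Dixon's test at the 95% level, where chance gives about 1 in 20. In CD-1 at 10 ppm replicate 1 had the highest Per1 (8.939, next 7.437) and Per2 (7.725, next 6.356), and replicate 2 had the highest Npas2 (5.998, next 4.629). In CD-1 in air replicate 5 had the lowest Per1 (6.174, next 6.95) and Per2 (5.593, next 6.488). In WT at 120 ppm Clock of replicate 4 (8.588, next 8.41) and Per3 of replicate 3 (7.269, next 6.928) were high. In TG Npas2 of air replicate 2 (4.53, next 4.015) was high and Cry1 of 10 ppm replicate 5 (5.896, next 6.302) was low. In KO Nr1d2 of 10 ppm replicate 2 (9.911, next 10.13) was low. Among these pairs 5 were in CD-1.

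The response to styrene differed between strains, by limma's test of the difference itself, in 11 cases. For CD-1 minus WT at 120 ppm these were Arntl (-2.225), Npas2 (-1.691), Cry2 (0.6499), Nr1d2 (1.404), Per2 (1.506) and Per3 (2.009), and at 40 ppm Per3 (1.419). The members were chosen with the opposite signs in CD-1 and WT known, so the CD-1 cases describe that pattern only. For KO minus WT at 120 ppm they were Arntl (-0.998), Cry1 (-0.4962), Nr1d2 (0.7022) and Per3 (0.9964). The KO cases hold the same known WT change, so they too are a description only.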

How the results depend on the processing

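Of 38 called member changes, 15 kept direction and call under every alternative run. With 1 fit for all 80 arrays, the members called became 5 at CD-1 120 ppm against air, 5 at CD-1 120 against 10 ppm, 2 at CD-1 120 against 40 ppm, 2 for the CD-1 minus WT response at 40 ppm, 1 for KO minus WT and 1 for TG minus WT at 120 ppm; all genes called at CD-1 120 ppm against air became 115 in place of 2. The shared spread is part of that fit. With the replicate block, 1 member was called at CD-1 120 ppm against air (Arntl, adjusted p = 0.029) and 1 for TG minus WT (Cry2, adjusted p = 0.0444), and Per2 at WT 120 ppm (adjusted p = 0.0426) and Arntl at WT 10 ppm (adjusted p = 0.0487) were called; the block changed no other call of a member. The CD-1 minus WT call at 40 ppm became 0 without the filter, 0 after centring, 0 with the trended and robust prior and 2 with mean probe sets. Centring left 0 calls for KO against WT in air; all genes called there became 963 higher and 597 lower, in CD-1 2743 higher and 1342 lower (544 and 5546 without centring) and in TG 2525 higher and 1546 lower. Leaving out each array of the groups compared gave 1 to 4 members at WT 10 ppm, 3 to 6 at WT 40 ppm, 0 to 1 at CD-1 120 ppm, 0 to 2 for CD-1 minus WT at 40 ppm and 0 to 2 for TG minus WT at 120 ppm. WT 10 ppm calls over all genes became 919 in place of 1434 without WT 10 ppm replicate 5.

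Some uncalled differences changed sign by more than their SE: Clock at WT 10 ppm with mean probe sets (-0.07864), Per2 at CD-1 10 ppm without CD-1 10 ppm replicate 1 (-0.3024, up to 0.1705 without replicate 2), and Arntl at WT 40 and 120 against 10 ppm without WT 10 ppm replicate 4 (-0.06821 and -0.03841, up to 0.2159 and 0.2457 without replicate 2). In air, centring turned Clock in CD-1 (0.2939), Arntl, Per2 and Nr1d2 in KO (0.09712, 0.0898 and 0.1408), and Cry1, Per3 and Nr1d2 in TG (0.499, 0.1982 and 0.2614), and the called Clock difference in TG (0.03349). Mean probe sets turned Per2 in TG (-0.03695). The causes were not tested. Of the relations with Arntl, that of Per1 changed sign (-0.286) with the replicate numbers removed; all others kept their sign under the 3 settings run, which were chosen after the data were seen.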
